A study of Mus musculus with 2 samples.

Results

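The genes described here encode the VEGF and angiopoietin ligands and their receptors, which were chosen by name as the 10 rows of the deposited table with the symbols Vegfa, Vegfb, Vegfc, Flt1, Kdr, Flt4, Angpt1, Angpt2, Tek and Tie1, out of 23276 symbols in all. They comprise 5 ligands (3 of the VEGF family and 2 angiopoietins) and 5 receptor tyrosine kinases (3 VEGF receptors and 2 Tie receptors), and all 10 averaged at least 1 FPKM over both libraries. They were measured in embryonic mouse heart ventricles by RNA-seq. The embryos under study were Fendrr KO, made from embryonic stem cells in which both alleles of the long non-coding RNA gene Fendrr had been removed by homologous recombination, and they were set against wild type (WT) embryos. Embryos of both genotypes were at stage E12.5, had a C57BL/6 x 129SV background and came from tetraploid complementation, in which the embryo proper is formed by the embryonic stem cells. How many stem cell clones were used was not given in the sources used here. Ventricles were pooled by 4 for each genotype, and each pool gave 1 strand-specific library of total RNA depleted of ribosomal RNA.

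VEGF ligands are secreted factors that bind receptor tyrosine kinases on endothelial cells and drive the formation and growth of vessels. VEGF-A, the product of Vegfa, signals mainly through VEGFR2 (Kdr), while VEGFR1 (Flt1) binds VEGF-A tightly with weak kinase activity and also exists as a soluble form that sequesters the ligand. VEGF-C (Vegfc) acts through VEGFR3 (Flt4), a pair best known for lymphatic growth. Angiopoietin-1 (Angpt1) activates the receptor Tie2 (Tek) and stabilises vessels, angiopoietin-2 (Angpt2) is a context-dependent antagonist at the same receptor, and Tie1 modulates Tie2 as an orphan receptor. In the embryonic heart the myocardium supplies VEGF-A and angiopoietin-1 to the endocardium, the endothelial lining that carries the receptors, and VEGF-A dosage is known to matter for cushion and trabecular development.

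Each genotype had 1 library, and the libraries were sequenced on separate runs, of which the WT run was interrupted and base-called by hand. Genotype, pool and run cannot be told apart, and no difference below was checked in a second library of either genotype. FPKM are read numbers normalised for transcript length and for all mapped reads. The steps between low FPKM values put the depth at about 16400000 mapped reads for KO and 13100000 for WT, a ratio of 1.26. The 12 cardiomyocyte markers were present in both libraries, with Myl2, the ventricular myosin light chain, at 9478 FPKM in KO and 9103 FPKM in WT. The row under the older symbol of Fendrr, 1110050K14Rik, was listed at 0 in both libraries and gave no check of the genotype labels. The libraries also differed in the Y-linked gene Ddx3y, at 0.786 FPKM in KO and 17.7 FPKM in WT. The markers of liver, yolk sac and lung summed to 21.6 FPKM in KO and 0.900 FPKM in WT, mostly Afp (16.6 FPKM in KO and 0.110 FPKM in WT). Of these 8 markers 5 were higher in KO, beside 6820 of all 23276 genes, and only 2 of the 8 averaged at least 1 FPKM. Alb and Sftpc, which define liver and lung, were listed at 0 in both libraries. The part of these differences in the values below was not tested.

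The start regions of 3 genes are shown because they carry the main contrast: Vegfa and Flt1 had the highest KO to WT ratios of the 10 genes, and Kdr, which encodes the other VEGF-A receptor, had nearly equal values. The sequences are the 250 bases before the annotated start, on the strand of the gene, from RefSeq on GRCm38.p6, which is not the build of the expression values (mm9). Capitals mark the letters ACGTG or GCGTG on either strand, the cores of the hypoxia response element, and the cAMP response element TGACGTCA. These motifs were chosen after the values and sequences had been seen. The Vegfa window lies at chr17:46032378-46032627 on the minus strand, the Flt1 window at chr5:147726012-147726261 on the minus strand and the Kdr window at chr5:75978456-75978705 on the minus strand.
Vegfa: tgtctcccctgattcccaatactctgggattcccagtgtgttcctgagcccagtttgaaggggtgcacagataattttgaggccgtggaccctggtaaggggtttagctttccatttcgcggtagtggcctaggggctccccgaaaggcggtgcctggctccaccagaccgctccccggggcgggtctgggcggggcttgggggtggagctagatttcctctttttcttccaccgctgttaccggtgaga
Flt1: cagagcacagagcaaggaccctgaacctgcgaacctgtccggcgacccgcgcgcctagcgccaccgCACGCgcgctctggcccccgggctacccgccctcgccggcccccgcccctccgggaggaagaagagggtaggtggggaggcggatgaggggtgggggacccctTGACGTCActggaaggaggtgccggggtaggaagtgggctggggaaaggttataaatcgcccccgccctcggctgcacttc
Kdr: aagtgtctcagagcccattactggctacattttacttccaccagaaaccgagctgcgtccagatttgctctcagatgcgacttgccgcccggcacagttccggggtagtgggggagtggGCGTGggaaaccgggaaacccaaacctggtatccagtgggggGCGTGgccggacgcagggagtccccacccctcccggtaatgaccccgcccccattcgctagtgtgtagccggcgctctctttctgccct
Flt1 held 1 GCGTG core and 1 TGACGTCA, and Kdr held 2 GCGTG cores. The Vegfa window shown held none of these letters, which says only that they are not in these 250 bases. A further Vegfa window, at an annotated start within the gene, held 1 ACGTG and 1 GCGTG and is not shown. It lies downstream of the window shown, so its letters are not upstream of that start and may be part of the transcript. The Vegfb window held 2 GCGTG cores. Among all 32851 RefSeq windows of this length, 38.6% held at least 1 of the hypoxia cores and 1.55% held TGACGTCA. The motifs searched do not overlap one another in these windows. The windows of Tek, Tie1, Vegfc and Flt4 held none of the motifs. Of the 10 genes, 8 had a window in the table used, and Angpt1 and Angpt2 had none.

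Vegfa was the only one of the 10 genes to pass 1.5-fold on the log2(FPKM + 1) scale, and none passed 2-fold in either direction. It was at 29.1 FPKM in KO and 18.4 FPKM in WT, which is a difference of 0.64 on that scale. Of 11349 genes averaging at least 1 FPKM, 1.54% passed 1.5-fold on the higher side in KO and 3.6% on the lower side, and 0.467% and 0.388% passed 2-fold on the higher and the lower side. With a pseudocount of 5 Vegfa did not pass 1.5-fold (0.54), whereas Flt1 passed it as well under 4 other scalings and with the pseudocount at 0.1. The shares over all genes are for the values as deposited with a pseudocount of 1, and were not computed for the alternatives. The count of 1 of 10 is too small to set apart from this background. The median log2 ratio of all these genes was -0.11, and the difference of Vegfa was at percentile 98.7 among them. Among the 3165 genes with a mean within 2-fold of its own it was at percentile 99.4.

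The other VEGF ligands went different ways. Vegfb, whose product binds VEGFR1 and is abundant in muscle, was at 17.5 FPKM in KO and 17.2 FPKM in WT. Its log2 ratio was at percentile 70.9 of all genes. Vegfc was at 3.85 FPKM in KO and 5.61 FPKM in WT, a log2 ratio of -0.45 at percentile 9.16 of all genes. This was the lowest of the 10 genes on the log2(FPKM + 1) scale. Without a pseudocount its ratio (0.686) was nearly that of Angpt2 (0.687). FPKM are per length, so that levels of different genes can be set side by side. The Vegfa and Vegfb values carry more digits than those of the other ligand and receptor genes. They may be sums of several values, which was not checked. Vegfa stood at 1.66 times the level of Vegfb in KO and 1.07 times in WT, and at 7.57 times the level of Vegfc in KO and 3.28 times in WT. The 3 ligands together summed to 50.5 FPKM in KO and 41.2 FPKM in WT.

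**Figure D1:**
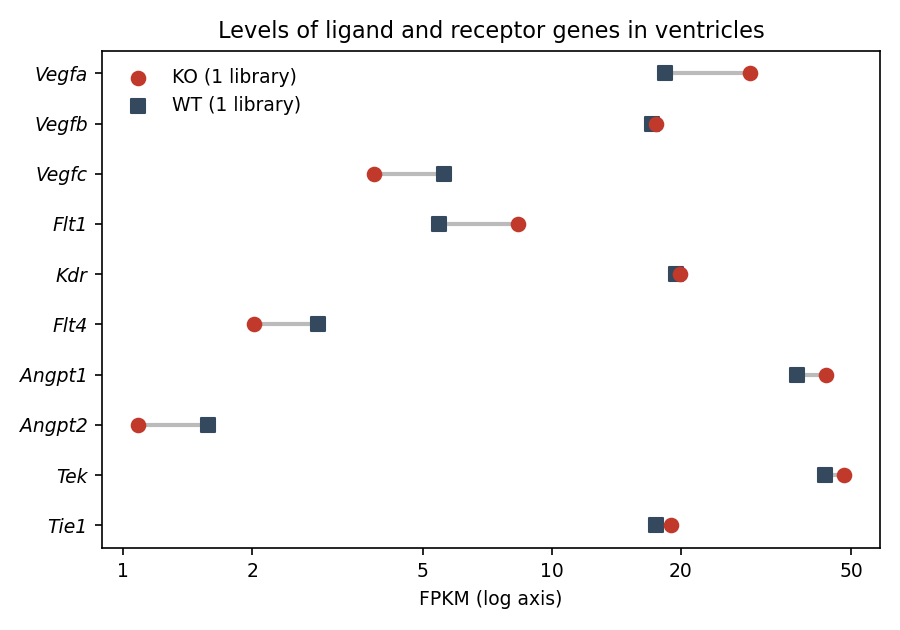
Levels of the 10 ligand and receptor genes in FPKM on a log axis, with a red circle for the KO library and a dark square for the WT library of each gene. Vegfa and Flt1 lie to the right in KO, Vegfc, Flt4 and Angpt2 lie to the left in KO, and Vegfb and Kdr nearly coincide.

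The 3 VEGF receptor genes did not move together. Flt1 was at 8.33 FPKM in KO and 5.45 FPKM in WT, with a log2 ratio of 0.53 at percentile 98.0 of all genes. Kdr was at 20.0 FPKM in KO and 19.6 FPKM in WT, with its log2 ratio at percentile 70.8. Flt4 was at 2.02 FPKM in KO and 2.85 FPKM in WT, a log2 ratio of -0.35 at percentile 16.2. The level of Kdr was therefore 2.40 times that of Flt1 in KO and 3.59 times in WT, and 9.88 times that of Flt4 in KO and 6.85 times in WT. The ligand gene Vegfa was at 1.46 times the level of Kdr in KO and at 0.940 times in WT. The table gives 1 value per symbol, so the membrane-bound and soluble forms of VEGFR1, like the splice forms of VEGF-A, are not separated.

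The Tie receptor genes had close values in the libraries. Tek had the highest level of the 10 genes in both, at 48.3 FPKM in KO and 43.6 FPKM in WT. Tie1 was at 19.0 FPKM in KO and 17.5 FPKM in WT, and its level relative to Tek was 0.393 in KO and 0.402 in WT. Their log2 ratios were 0.14 for Tek and 0.11 for Tie1, at percentiles 84.0 and 80.8 of all genes.

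Of the angiopoietin genes, Angpt1 was abundant, at 43.7 FPKM in KO and 37.4 FPKM in WT, with a log2 ratio of 0.22. Angpt2 had the lowest level of the 10 genes, at 1.08 FPKM in KO and 1.57 FPKM in WT, with a log2 ratio of -0.31. These log2 ratios were at percentiles 89.4 (Angpt1) and 20.6 (Angpt2) of all genes. Angpt1 stood at 40.4 times the level of Angpt2 in KO and at 23.7 times in WT.

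In order of level, Tek and Angpt1 came first and Flt4 and Angpt2 last in both libraries. Vegfa stood above Kdr in KO and below it in WT, and Flt1 stood above Vegfc in KO and just below it in WT. The other neighbours kept their order. With 1 library per genotype no spread over samples is known for any level, so that Kdr, Tie1 and Vegfb, which lay between 17.2 and 20.0 FPKM in both libraries, cannot be ranked with any certainty.

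The depth gave an approximate number of reads behind each value, from the longest protein-coding transcript of each gene in GENCODE vM21. These numbers ran from 63 reads (Angpt2) to 3694 reads (Tek) in KO and from 73 to 2654 reads for the same genes in WT. Intervals for counting error alone, at 95% and by the exact binomial method, were set around the KO to WT ratio of FPKM without a pseudocount. They cover neither the spread between embryos nor that between library preparations, and reads amplified by PCR are not independent molecules. For Vegfa the ratio was 1.58 (interval 1.46 to 1.72, about 1652 reads in KO and 830 in WT). For Flt1 it was 1.53 (1.37 to 1.71, about 944 and 492 reads in KO and WT). The read numbers depend on the transcript length taken: with the median length of coding transcripts, an alternative added after the data were seen, Vegfa had about 547 reads in KO and 275 in WT, with an interval of 1.37 to 1.84. Vegfc then had about 95 reads in KO and 110 in WT, against 155 and 180 with the longest transcript, and an interval of 0.517 to 0.913.

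The intervals of Angpt1 (ratio 1.17, interval 1.11 to 1.24) and Tek (1.11, 1.05 to 1.16) also lay above 1, so that 4 of the 10 genes did. The intervals of Vegfc (0.686, 0.549 to 0.854), Flt4 (0.708, 0.584 to 0.856) and Angpt2 (0.687, 0.482 to 0.975) lay below 1. The remaining 3 intervals held 1, those of Vegfb (1.02, 0.872 to 1.19), Kdr (1.02, 0.954 to 1.09) and Tie1 (1.08, 0.998 to 1.18). Such intervals were not made for other genes, so no all-gene share stands beside these counts. The all-gene median log2 ratio was -0.11, below equal values, so the counts depend on the scaling taken. The interval of Flt1 overlapped only that of Vegfa, so its lack of overlap with that of Kdr is not particular to this pair. Flt1 and Kdr were set side by side for their ratios in these same libraries. The 3 genes with lower values in KO were also those with the fewest reads. The central 95% of all genes lay between -0.64 and 0.49 on the log2(FPKM + 1) scale, and that range held all of the 10 genes except Vegfa and Flt1.

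**Figure D2:**
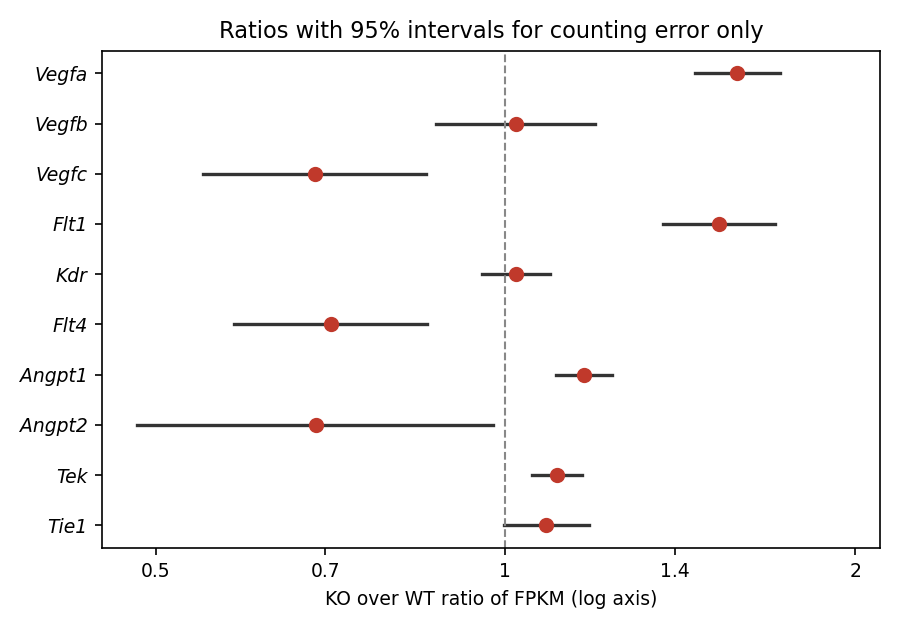
Ratio of KO to WT FPKM for each gene (red point, log axis) with its 95% interval for counting error only (line). A dashed line marks equal values, and the intervals lie above it for 4 genes, below it for 3 and across it for 3. Intervals were not made for other genes.

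**Figure D3:**
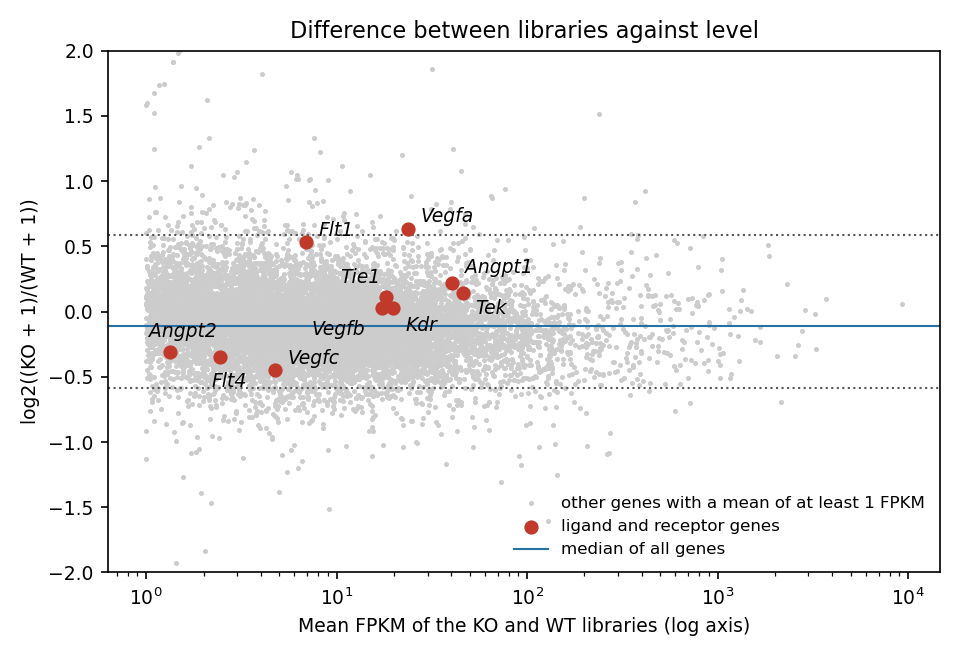
Log2 ratio of KO to WT on the log2(FPKM + 1) scale against the mean FPKM of the libraries (log axis), with the ligand and receptor genes in red and the other genes averaging at least 1 FPKM in grey. Dotted lines mark 1.5-fold and the blue line the median of all genes; Vegfa alone of the 10 lies beyond a dotted line, and 24 genes lie outside the vertical range drawn.

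Relative to all genes, 7 of the 10 had a log2 ratio above the median, and the median of the 10 was 0.07, or 0.18 above that of all genes. The same 7 had a log2 ratio above 0, against 33% of all genes. In a bulk sample, a smaller number of cells of a type and less RNA per cell cannot be told apart, so the receptors were set beside other genes of the endothelium. The 24 measured endothelial and endocardial markers had a median log2 ratio of -0.02, and 17 lay above the median of all genes. On the log2(FPKM + 1) scale 0 of them passed 1.5-fold in either direction, where 1.54% of all genes were higher and 3.6% lower. At these shares a count of 0 does not set them apart. Under the 4 other scalings, for which all-gene shares were not computed, 1 or 2 were higher. Pecam1, an endothelial adhesion molecule, was at 42.7 FPKM in KO and 39.4 FPKM in WT, and the sialomucin gene Emcn at 41.0 FPKM in KO and 50.1 FPKM in WT. The furthest were Clec14a, an endothelial lectin-domain protein, at 15.4 FPKM in KO and 10.0 FPKM in WT, and the ETS factor Erg at 15.3 FPKM in KO and 10.7 FPKM in WT. Relative to the endothelial median, Flt1 was 0.55 higher on the log2 scale and Flt4 was at -0.34, while Tek (0.16), Tie1 (0.13) and Kdr (0.04) lay nearer to it. The log2 ratio of Flt1 itself (0.53) lay between those of the markers Erg (0.48) and Clec14a (0.58), within the range of the markers. That of Flt4 (-0.35) lay below that of Emcn (-0.28).

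Of the co-receptors and modulators, 8 of the 11 with a row averaged at least 1 FPKM. None was 1.5-fold higher and 1 was 1.5-fold lower, the heparan sulfate proteoglycan gene Gpc1, at 11.3 FPKM in KO and 19.3 FPKM in WT (log2 ratio -0.73), where 1.54% of all genes were higher by that limit and 3.6% lower. The neuropilin Nrp1, a co-receptor for VEGF-A, had nearly equal values of 33.6 FPKM in KO and 33.8 FPKM in WT. Nrp2, which also binds VEGF-C, was at 5.70 FPKM in KO and 3.99 FPKM in WT, the opposite direction to Vegfc and Flt4. The other ligand genes of the family were named after their values were seen: Pgf (placental growth factor) was at 3.72 FPKM in KO and 3.85 FPKM in WT, and Figf (VEGF-D) at 1.52 FPKM in KO and 1.51 FPKM in WT.

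Downstream of the receptors, 27 measured signal transducers held 0 genes past 1.5-fold in either direction, which at shares of 1.54% higher and 3.6% lower among all genes does not set them apart. Their median log2 ratio was -0.13, which is 0.02 below that of all genes on the same scale, and 12 of the 27 lay above the all-gene median. The furthest was Nos3, the endothelial nitric oxide synthase, at 6.87 FPKM in KO and 9.34 FPKM in WT. The kinase gene Map2k2 was at 17.8 FPKM in KO and 23.3 FPKM in WT, and the more abundant Akt1 at 51.0 FPKM in KO and 57.8 FPKM in WT and Cdc42 at 154 FPKM in KO and 182 FPKM in WT.

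Genes that endothelial cells are known to switch on under VEGF or Tie signalling also held 0 of 15 past 1.5-fold on the log2(FPKM + 1) scale. This count is near the background of 1.54% higher and 3.6% lower among all genes. The median log2 ratio of the 15 was 0.07, and 12 of 15 lay above the all-gene median. The furthest were Plaur, the urokinase receptor, at 0.958 FPKM in KO and 1.81 FPKM in WT, and the membrane protease Mmp14 at 38.6 FPKM in KO and 28.8 FPKM in WT. Without a pseudocount the KO to WT ratio of Plaur was 0.531, which the pseudocount of 1 brings nearer to equal values. Rcan1, a calcineurin regulator, was at 53.2 FPKM in KO and 62.9 FPKM in WT. Many of these genes are also expressed by other cells of the heart.

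Vegfa is a target of the hypoxia-inducible factors. A list of genes that respond to low oxygen, together with the machinery that senses it, held 27 measured genes. Of these, 5 passed 1.5-fold on the higher side in KO and 0 on the lower, against 1.54% and 3.6% of all genes. Under the 4 other scalings 9 or 10 of them passed, and with a pseudocount of 5 none did. The all-gene shares under these settings were not computed, so these counts have no background beside them. As deposited, the median log2 ratio of the 27 was 0.34, and 21 of 27 lay above the median of all genes. Ndrg1 was at 5.01 FPKM in KO and 2.30 FPKM in WT, the glycolytic enzyme gene Aldoc at 5.29 FPKM in KO and 2.56 FPKM in WT, and Pfkfb3, a regulator of glycolysis, at 2.45 FPKM in KO and 0.979 FPKM in WT. Egln3, an oxygen-sensing hydroxylase, was at 6.86 FPKM in KO and 4.08 FPKM in WT. The most abundant genes of the list did not share this: Pgk1 was at 630 FPKM in KO and 620 FPKM in WT, and Ldha at 611 FPKM in KO and 719 FPKM in WT. This list was drawn up with its direction in these libraries already known, and its higher values are no independent support for that of Vegfa.

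Beside the VEGF-C and VEGFR3 genes, the vessel-type markers gave no single direction. Of 10 measured arterial, venous and lymphatic genes, 1 was 1.5-fold higher in KO, 0 were lower and 5 lay above the median of all genes, beside 1.54% of all genes higher and 3.6% lower by 1.5-fold. The one was Lyve1, a hyaluronan receptor of lymphatic endothelium and of embryonic macrophages, at 4.71 FPKM in KO and 2.49 FPKM in WT. Prox1, the lymphatic transcription factor that cardiomyocytes also express, was at 6.99 FPKM in KO and 8.50 FPKM in WT (named after its value was seen). The arterial ligand gene Efnb2 was at 13.7 FPKM in KO and 9.89 FPKM in WT, the arterial connexin gene Gja5 at 39.3 FPKM in KO and 44.4 FPKM in WT, and Hey2 at 45.5 FPKM in KO and 50.4 FPKM in WT. Gja5 and Hey2 are also expressed by ventricular cardiomyocytes.

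**Figure D4:**
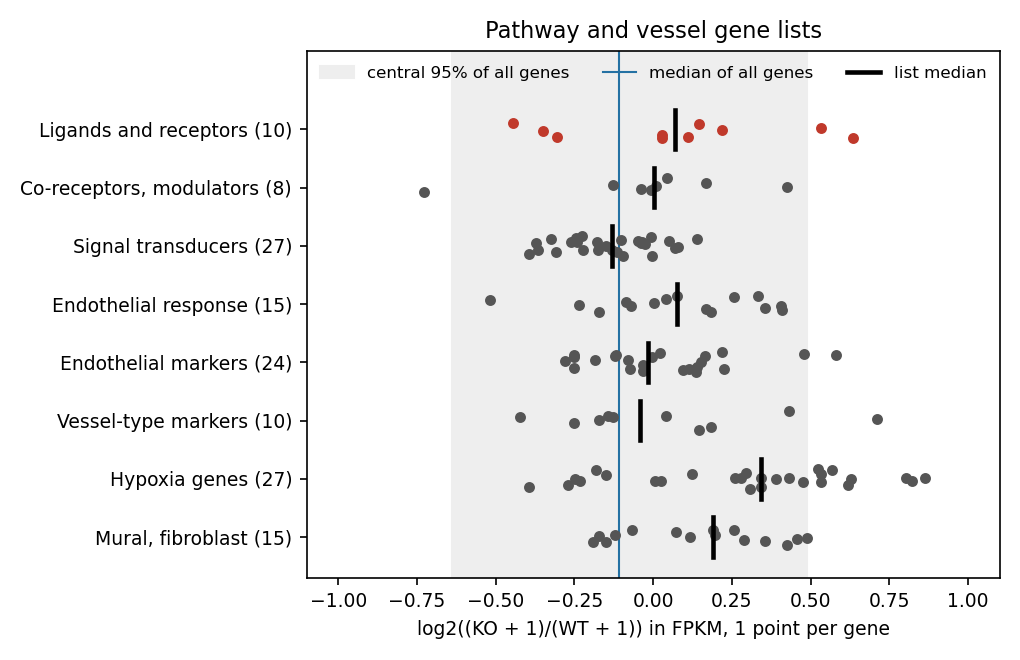
Log2 ratio of KO to WT on the log2(FPKM + 1) scale for the genes of each list averaging at least 1 FPKM (1 point per gene, number of genes in brackets), with the list median as a black bar. The grey band holds the central 95% of all genes and the blue line is their median; the median of the ligand and receptor genes is 0.07, and that of the hypoxia genes is 0.34.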

How the data were processed

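RNA from ventricles pooled by 4 per genotype (500 ng) was depleted of ribosomal RNA, made into libraries with 15 PCR cycles and read for 100 bases, per the labels' protocols. The deposited table gives FPKM per gene symbol, made by the authors. The submitters' processing notes name the tools Cufflinks 2.0.2, TopHat2 2.0.6 and Bowtie2 2.0.2 and the build mm9; the gene annotation and the tools' options are not known here.

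Log2((KO + 1)/(WT + 1)) was computed for genes averaging at least 1 FPKM, and genes past 2-fold or 1.5-fold were counted. With 1 library per genotype no test of genotype was made and no p-value computed. Relative depth came from 2213 genes with a mean under 0.3 FPKM, where KO over WT, divided by 0.796, came within 0.1% of a quotient of integers no larger than 10 for 68.9% of genes (median 1.08% at other steps). Depth itself came from values under 0.5 FPKM of genes with 1 GENCODE vM21 transcript over 1500 nt: in KO 61.9% of 349 values and in WT 69.8% of 278 values lay within 3% of a multiple of 1 step (medians at other steps 8.23% and 9.31%). This assumes scaling to all mapped reads. Read numbers used the longest coding transcript, with the median length as an alternative, and those of genes with several transcripts are the least certain. The deposited Vegfa values carry 9 digits and those of Vegfb 7, where those of the other ligand and receptor genes carry 5 or 6. A sum of several values would carry more digits, but whether these are sums was not checked. The procedures were tested on simulated data.

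The genes and lists were chosen with earlier results of these data known. All 10 genes are named; of each other list, up to 4 genes past 1.5-fold (or the 2 furthest) and the 2 most abundant. Python 3.11.15, numpy 2.4.6, pandas 2.3.3, scipy 1.17.1 and matplotlib 3.10.9 were used. Alternatives were pseudocounts of 0.1 and 5, no filter, a minimum mean of 5 FPKM, and median, upper-quartile, trimmed-mean and quantile scaling.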

Additional observations from a re-analysis of the deposited data

How the results depend on the processing

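No paired analysis was possible because 1 library stands for each genotype, and none could be left out. Under each of 8 alternatives 7 of the ligand and receptor genes had ratios over the all-gene median, out of 10 or, at a minimum mean of 5 FPKM, out of 7, and none passed 2-fold. The log2 ratio ranged from 0.54 to 0.78 for Vegfa, from 0.35 to 0.64 for Flt1 and from -0.53 to -0.26 for Vegfc. It ranged from -0.48 to -0.16 for Flt4 and from -0.50 to -0.11 for Angpt2. No sign changed for any of the 10 where a value was given. A change of pseudocount or filter cannot change a sign, so only the 4 scalings could have done so. Median centring shifts all genes alike, so it cannot change the count over the all-gene median. Genes of the 10 that passed 1.5-fold higher numbered 2 (Vegfa and Flt1) with a pseudocount of 0.1 and under each of the 4 scalings, 0 with a pseudocount of 5, and 1 otherwise. These scalings bring the all-gene median from -0.11 to between -0.02 and 0.00. Shares of all genes past 1.5-fold were not computed under any alternative, so the counts given here have no background. For the lists, median centring, upper-quartile, trimmed-mean and quantile scaling gave 10, 10, 9 and 10 hypoxia genes 1.5-fold higher, against 5 as deposited, 2 at a minimum mean of 5 FPKM and 0 with a pseudocount of 5. They gave 2, 2, 1 and 2 endothelial markers higher, and 1, 1, 1 and 2 mural and fibroblast genes higher, against 0. Median centring and upper-quartile scaling gave 1 cardiomyocyte gene higher, 1 lower and 0 haematopoietic genes lower; the trimmed mean gave 1 cardiomyocyte gene higher and quantile normalization 1 lower. A pseudocount of 0.1 gave 1 endothelial response gene lower, 1 endothelial marker higher and 2 haematopoietic genes lower. A pseudocount of 5 gave 0 co-receptor genes lower, and with it or a minimum mean of 5 FPKM 0 vessel-type genes were higher and 0 haematopoietic genes lower. Liver, yolk sac and lung markers 1.5-fold higher numbered 1 in both these cases and 4 without a filter, and their median above that of all genes was 4.19 with a pseudocount of 0.1, 1.27 with 5, 0.98 with no filter, and 4.12 where 5 FPKM was required, against 2.58. Depth limits Angpt2 most, with about 63 reads in KO and 73 in WT. The cause of these shifts was not tested.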

Other observations

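Genes of the cells that surround the endothelium were measured beside the ligands and receptors. Of 15 mural and fibroblast genes, 0 passed 1.5-fold, where 1.54% of all genes were higher and 3.6% lower. Of these 15 genes 11 lay above the all-gene median, and the median log2 ratio of the 15 was 0.19. Tcf21, a factor of epicardium-derived fibroblasts, was at 19.0 FPKM in KO and 13.3 FPKM in WT, the matrix gene Postn at 224 FPKM in KO and 163 FPKM in WT, and the smooth muscle actin gene Acta2 at 409 FPKM in KO and 467 FPKM in WT. The 6 epicardial markers had 0 past 1.5-fold, with Krt19 at 15.8 FPKM in KO and 22.0 FPKM in WT and Upk3b at 28.8 FPKM in KO and 23.2 FPKM in WT.

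Among all genes 1.54% were 1.5-fold higher and 3.6% lower in KO on the log2(FPKM + 1) scale, to which the counts below refer. Of 12 cardiomyocyte genes, 2 were 1.5-fold lower in KO: the troponin gene Tnni3, at 443 FPKM in KO and 753 FPKM in WT, and the myosin light chain gene Myl3, at 1651 FPKM in KO and 2671 FPKM in WT. Actc1, the cardiac actin gene, was at 3857 FPKM in KO and 3605 FPKM in WT. Of 8 measured haematopoietic genes, 1 was 1.5-fold lower, the platelet integrin gene Itga2b, at 0.920 FPKM in KO and 2.02 FPKM in WT; the platelet chemokine gene Pf4 was at 4.76 FPKM in KO and 7.41 FPKM in WT. The embryonic globin genes differed in direction, with Hba-x at 353 FPKM in KO and 271 FPKM in WT and Hbb-bh1 at 87.7 FPKM in KO and 112 FPKM in WT. Ttr, a marker of liver and yolk sac, was at 1.79 FPKM in KO and 0.438 FPKM in WT.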
